A study of Mus musculus with 2 samples.

Results

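The genes that carry the insulin signal from its receptor to the Rab GTPase activators of glucose transport were examined in skeletal muscle of RXRγ mice. They are 9 of the 18194 genes that the platform annotation names alone for a probe set, and all 24 probe sets named for Insr, Irs1, Irs2, Pik3r1, Akt1, Akt2, Tbc1d1, Tbc1d4 or Grb14 were taken. Each probe set combines several short oligonucleotides designed against the same transcript. The RXRγ mice overexpress RXRγ from a human α-actin promoter, which is active in skeletal muscle, and the control mice are non-transgenic. Both groups are C57BL6 females at 4 months of age without further treatment given in the labels, and the RXRγ mice are of a single transgenic line. RNA was pooled within each genotype (5 animals in the design text, 3 in the extraction protocol) and each pool was hybridized to 1 Affymetrix MG430 array. There is thus no replicate array. No value below has an error or a p-value, a difference between the pools cannot be set against the spread between animals, and precision is limited by having 1 array each.

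Insulin binds a receptor tyrosine kinase, which phosphorylates insulin receptor substrates. These recruit phosphoinositide 3-kinase, whose lipid product brings the kinase Akt to the membrane, where it is activated. In muscle and fat, Akt phosphorylates Tbc1d4 and Tbc1d1, proteins that hold Rab GTPases in their inactive form, and this releases vesicles loaded with the glucose transporter Glut4 to the cell surface. Phosphorylation was not measured on the arrays, which report transcripts only.

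The array of RXRγ mice carried the transgene product, Rxrg reading 9172.1 against 334.5 in controls. All 12 muscle fibre genes listed as markers were measured, with signals summed over their probe sets of 123825 in RXRγ mice and 152001 in controls, and 5 of them were lower and none higher by 0.4 or more in log2 ratio (median -0.25). Of all measured genes 20.1% were lower, and of those with a mean signal above 2000, 21.1% differed by this much either way. Among the 5, Ckm (-1.39 and -0.11) and Myh4 (-0.77 and -0.06) had probe sets that disagreed. Of 10 adipocyte markers 4 were measured and none was higher. Adipoq, Fabp4 and Retn had log2 ratios of 0.17, 0.19 and 0.22, and Car3, which muscle also expresses, had -1.32, so that the summed signal of the list was 15840 against 26233 in controls. Of 7 fibroblast markers 5 were measured and Lum was higher (1770.8 against 699.1), with sums of 11353 and 9669. Of 9 leukocyte markers 2 were measured (sums of 1710 and 1416), as were 2 of 7 of nerve (1580 and 1390), all within 0.4. None of 7 endothelial (sums of 1141 and 1373), 6 blood (39.0 and 106) and 7 liver markers (158 and 188) reached 250. In such pooled tissue, fewer cells of a type and less RNA per cell cannot be told apart, and the part of these lists in the results below was not tested.

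Of the members, 2 lay higher and 2 lower on the array of RXRγ mice. Here a gene counts as measured if a probe set has a signal above 250 on the brighter array, its value is the mean log2 ratio of RXRγ over control over such probe sets, and it is called when this differs from 0 by at least 0.4. These are thresholds of the study's methods. By this rule 6 of the 9 members were measured. Grb14 and Akt2 were higher, Tbc1d4 and Irs1 were lower, and Insr and Pik3r1 were neither. Of all 3780 genes measured 36.9% were called, 16.8% higher and 20.1% lower, which is the share that the calls among the members are read against. The median log2 ratio of the 6 members was -0.25, that of all measured genes -0.04, and without regard to sign the medians were 0.50 and 0.29. Grb14 and Akt2 are also among the genes that the study lists as increased on these arrays, which is therefore no independent evidence.

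**Figure D1:**
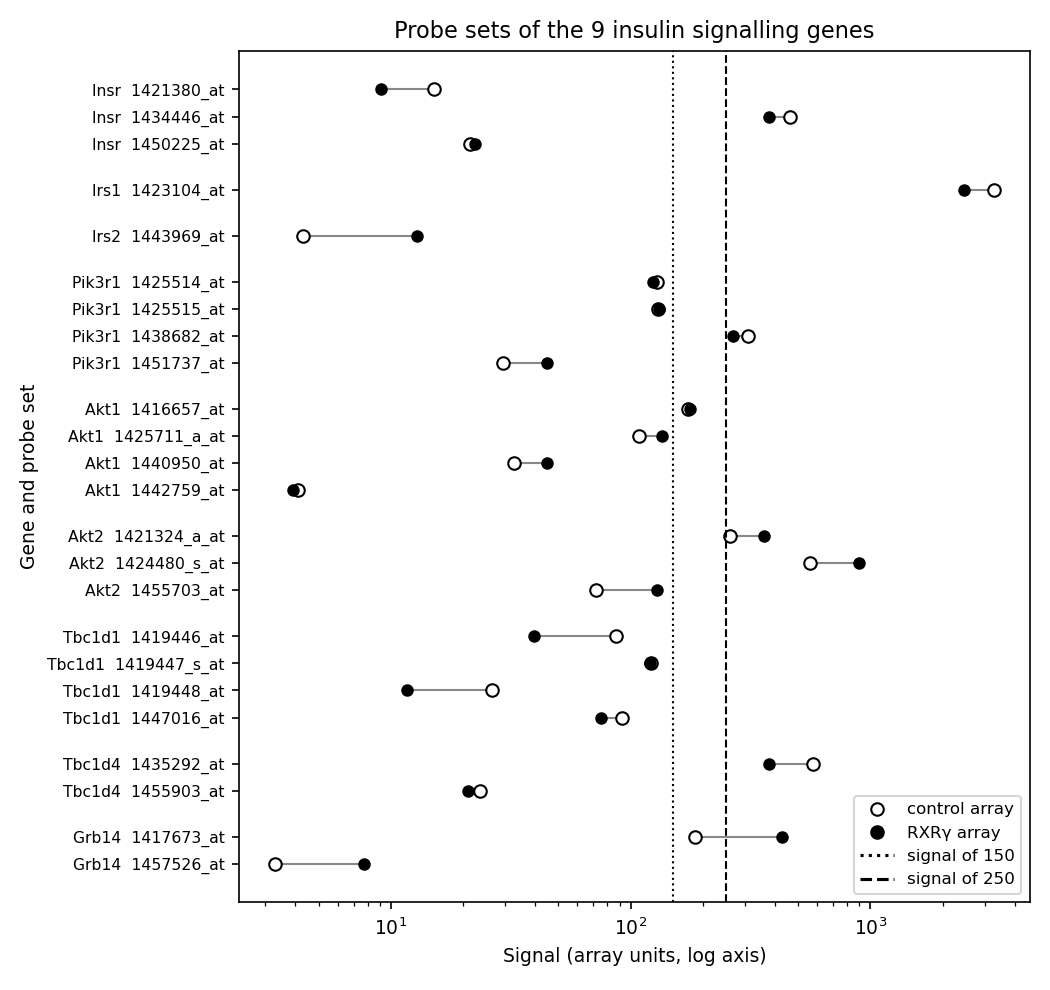
Signal of each of the 24 probe sets of the 9 genes on the control array (open circles) and on the RXRγ array (filled circles), in array units on a log axis, 1 array per genotype. The dotted line marks 150 and the dashed line 250; 7 probe sets reach 250 on the brighter array, 16 stay at or under 150 on both arrays, and the filled circle lies to the right of the open circle at every probe set of Akt2 and Grb14.

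At the cell surface, Insr, the insulin receptor, gave 461.7 on the control array and 376.9 on the RXRγ array. This is a log2 ratio of -0.29, short of the threshold, and 49.1% of all measured genes differed by at least as much. Its other 2 probe sets were at or under 22.5 on both arrays, too low for a ratio. Irs1, the first of the substrates that the receptor phosphorylates, gave 3273.5 on the control array and 2451.2 on the RXRγ array, and was 1.34-fold lower. The log2 ratio of -0.42 rests on its single probe set and lies next to the threshold. Genes as bright as Irs1 differed less between the arrays than the rest: of the 342 genes with a mean signal above 2000, 21.1% were called. With quantile normalization the log2 ratio of Irs1 was -0.38 and with intensity-dependent centring -0.35, both under the threshold. Irs2, the second substrate, was not measured: its only probe set read 4.3 and 12.9 in control and RXRγ mice, and no ratio is given.

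Pik3r1 encodes the regulatory subunit that docks phosphoinositide 3-kinase onto the phosphorylated substrates. Its brightest probe set had 308.4 in control mice and 267.2 in RXRγ mice (log2 ratio -0.21, not called). Of the other 3 probe sets, a pair lay close together on the 2 arrays, at 128.7 and 130.7 in controls and at 123.9 and 131.2 in RXRγ mice, and the last was at 29.5 and 44.7. Of the 4, the first alone was bright enough on both arrays for a ratio.

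The Akt genes could be read unequally. Akt2, the isoform known for its part in insulin-stimulated glucose uptake, was higher in RXRγ mice at each of its probe sets. The signals were 895.9 against 560.2 in controls and 361.6 against 258.9 at the 2 probe sets above 250, log2 ratios of 0.68 and 0.48, with a mean of 0.58 (1.49-fold). The third had 129.1 against 71.4, under 150 on both arrays, which is too low for a fold. The brighter of the first pair carries the suffix _s_at, which marks probes that can match more than a single transcript, and without it the log2 ratio was 0.48. A difference at least as large as that of Akt2 was seen in 23.5% of measured genes. Akt1, the isoform known for its part in growth, stayed under 250. The brightest of its 4 probe sets had 173.8 in controls and 176.6 in RXRγ mice, a log2 ratio of 0.02, and the others had at most 134.7. Whether the difference of Akt2 from Akt1 exceeds the spread between animals was not tested.

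Tbc1d4 was 1.53-fold lower in RXRγ mice, reading 378.5 against 578.1 in controls (log2 ratio -0.61), and 21.6% of measured genes differed by at least as much. This too rests on a single probe set, since the other had 21.0 and 23.5. With no filter on signal, which averages both probe sets, the log2 ratio of Tbc1d4 was -0.39, under the threshold. Tbc1d1, the related Rab GTPase activator that is also a substrate of AMP-activated protein kinase, was not measured. Its 4 probe sets had at most 122.2 in controls and 120.6 in RXRγ mice, and no fold is given for them. The brightest of the 4 lay within 1.6 units on the arrays, and the other 3 were lower in RXRγ mice, at 39.5 against 87.0, 11.7 against 26.4 and 75.0 against 91.8.

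Grb14, an adaptor that binds the activated insulin receptor and inhibits its kinase, differed most among the 6 measured members. Its signal was 426.9 on the RXRγ array and 185.4 on the control array, a log2 ratio of 1.20 (2.30-fold), and 6.2% of measured genes differed by at least as much. The control signal lay above 150 but under 250, so Grb14 was left out when 250 was required on both arrays. Its second probe set, at 7.7 and 3.3, was too dim for a fold. Of the 1748 genes with a mean signal from 250 to 500, the range of Grb14, Tbc1d4, Insr and Pik3r1, 34.6% were called.

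**Figure D2:**
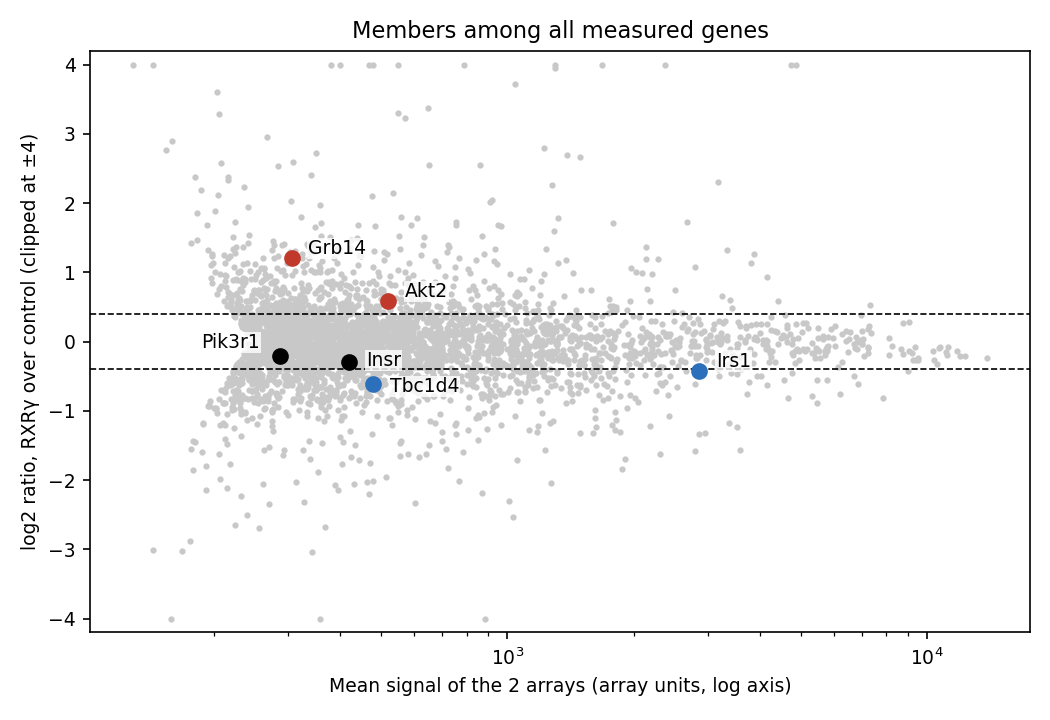
log2 ratio of RXRγ over control against the mean signal of the 2 arrays in array units (log axis), 1 grey point per measured gene (3780), with values beyond ±4 drawn at ±4. Calls begin at the dashed lines (0.4 either way); among the 6 measured members Grb14 (1.20) and Akt2 (0.58) are red, Tbc1d4 (-0.61) and Irs1 (-0.42) blue, and Insr and Pik3r1 black between the lines.

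The sequences before the transcription start of the 4 called members are shown because 2 of these genes lay higher and 2 lower in mice that overexpress a DNA-binding receptor. Each is the 250 bases before a RefSeq start in GRCm38.p6, read 5′ to 3′ on the strand of the gene, for Akt2 at the first of its 4 listed starts. Capitals mark the GC box GGGCGG, a site bound by factors of the Sp family, or its reverse complement CCGCCC, with overlaps allowed.
Grb14, chr2:65022767-65023016, minus strand: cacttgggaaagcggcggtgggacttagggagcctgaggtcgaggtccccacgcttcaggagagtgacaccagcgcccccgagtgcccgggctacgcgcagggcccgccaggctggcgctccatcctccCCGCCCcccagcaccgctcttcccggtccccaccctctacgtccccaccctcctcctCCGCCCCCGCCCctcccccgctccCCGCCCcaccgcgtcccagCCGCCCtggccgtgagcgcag
Akt2, chr7:27591302-27591551, plus strand: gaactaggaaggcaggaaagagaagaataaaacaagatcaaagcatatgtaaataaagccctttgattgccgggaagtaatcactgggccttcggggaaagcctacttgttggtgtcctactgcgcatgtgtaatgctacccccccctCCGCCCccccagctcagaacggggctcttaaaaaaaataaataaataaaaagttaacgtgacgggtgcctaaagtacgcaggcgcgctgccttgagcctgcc
Irs1, chr1:82291440-82291689, minus strand: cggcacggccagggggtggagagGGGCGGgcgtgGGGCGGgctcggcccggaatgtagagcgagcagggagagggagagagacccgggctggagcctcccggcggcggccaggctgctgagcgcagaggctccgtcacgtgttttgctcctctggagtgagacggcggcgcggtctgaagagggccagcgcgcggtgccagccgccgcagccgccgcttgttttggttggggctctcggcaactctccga
Tbc1d4, chr14:101609192-101609441, minus strand: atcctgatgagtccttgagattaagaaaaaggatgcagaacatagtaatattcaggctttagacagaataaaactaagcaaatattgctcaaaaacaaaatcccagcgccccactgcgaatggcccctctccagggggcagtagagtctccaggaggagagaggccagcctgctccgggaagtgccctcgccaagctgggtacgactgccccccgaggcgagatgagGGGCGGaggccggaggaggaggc
The window of Grb14 holds 5 GC boxes and is 75.2% G or C, and 1.93% of all 32851 windows of this length held at least as many. Those of Irs1, Akt2 and Tbc1d4 hold 2, 1 and 1, with 72.4%, 48.8% and 54.8% G or C, and 32.7% of all windows held a GC box. Members that were not called came close to Grb14. Before a start of Akt1, Pik3r1 and Tbc1d1 the window held 4 GC boxes each, with 78.4%, 76.4% and 73.6% G or C. The other window of each of these genes held 0. The E-box CACGTG was found in the window of Irs1 and also in that of Irs2, which was not measured (6.02% of all windows). The hexamer AGGTCA, which RXR and its partners bind as a repeat, was absent in either direction (TGACCT) from the 4 windows shown, and 14.0% of all windows held it. Among all 14 windows listed for 8 members, with none for Insr, it was found in 1, before a start of Akt1. An exact match within 250 bases misses sites that lie further out or differ in a letter. The study searched longer promoter stretches with motif matrices. The putative sites for PPAR, a partner of RXR, that it reports before Glut1 lie further from the start than such a window reaches. Absence of the hexamer here therefore decides nothing about such sites. These matches describe letters, and RXRγ binding was not measured.

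The genes around the members were followed in 8 lists, ordered by their place in the pathway. Beside the members the lists hold 144 gene names, of which 62 were measured, 11 were higher and 15 were lower in RXRγ mice. The 41.9% called compare with 36.9% of all measured genes, and the median log2 ratio was 0.01. The counts of each list are to be read beside the shares of all measured genes, 16.8% higher and 20.1% lower. Gab1, Ptpn1 and Pdpk1, among others of the higher genes, also stand in the study's own list of increased genes from these arrays, so the counts are not independent of it. A gene that passed the filter on 1 array only had to differ, and no count or median of a list is given as support for a direction.

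Of 18 genes of the receptor and its adaptors, 4 were measured, members included, with 1 higher and 1 lower (median -0.11). The docking protein gene Gab1 was higher, at 269.7 against 167.7 in controls. Its other 2 probe sets had 178.0 against 131.2 and 119.7 against 108.1. Gab1 passed 250 only on the RXRγ array, and with 250 required on both arrays 0 genes of this list were higher. Grb2, which links receptors to Ras, had a log2 ratio of 0.07 at its brighter probe set (268.4 against 255.4). Its other probe set had 89.7 against 154.3, and with both, above 150 or with no filter, the log2 ratio was -0.36. Igf1r, the related receptor of insulin-like growth factor, stayed under 250, at no more than 167.5.

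Among 19 genes that restrain the receptor and its substrates, 7 were measured, 2 were higher and 1 was lower (median 0.15). The 2 higher were Grb14 and Ptpn1, a tyrosine phosphatase that dephosphorylates the insulin receptor. Ptpn1 read 410.3 against 185.9 in controls, a log2 ratio of 1.14, near that of Grb14, and its second probe set had 134.5 against 75.9, too low for a fold. Socs2, known mainly as an inhibitor of growth hormone signalling, was lower at both of its probe sets above 250 (155.1 against 397.1 and 150.9 against 308.9, mean log2 ratio -1.19). Socs7 (0.39), Socs6 (-0.24) and Grb10, the paralogue of Grb14 (626.4 against 564.4 in controls, 0.15), were not called. Socs7 was above the threshold with quantile normalization (0.41) and with intensity-dependent centring (0.43). Grb14, Ptpn1 and Socs2 passed the filter of 250 only on the array where they were brighter, and with 250 required on both arrays 0 genes of the list were higher and 0 lower.

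Of 20 genes of phosphoinositide 3-kinase and the lipid phosphatases, 5 were measured, none was higher and 1 was lower (median -0.19). It was Inppl1, which encodes the lipid phosphatase SHIP2, a negative regulator of insulin signalling, at 263.5 against 403.4 in controls (log2 ratio -0.61). The catalytic subunit genes Pik3ca and Pik3cd had log2 ratios of 0.12 and -0.19, and the inhibitor gene Pik3ip1 had 0.26.

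Of 20 genes of the Akt kinases, their activators and inhibitors, 10 were measured, 5 were higher and 1 was lower. Of all measured genes 16.8% were higher and 20.1% lower. With 250 required on both arrays 4 genes of the list were higher, and at a threshold of 1 the number was 0. The list had a median log2 ratio of 0.41 against -0.04 over all measured genes, but its median depended on the processing: it was 0.29 with median scaling, 0.39 with a pseudocount or with the brightest probe set, 0.17 above 150, 0.26 above 250 on both arrays and 0.13 with no filter. Pdpk1, the kinase that phosphorylates Akt in its activation loop, read 854.4 against 527.5 in controls (log2 ratio 0.70). Mtor, the kinase of the complexes mTORC1 and mTORC2, the latter also acting on Akt, had 413.9 against 229.7 (0.85). It passed 250 only on the RXRγ array. Deptor, which inhibits mTOR, was higher at all 4 of its probe sets above 250, with log2 ratios from 0.67 to 0.93 and means of 884.2 against 518.8. The phosphatase 2A genes, whose product removes phosphate from Akt among many proteins, went both ways, with Ppp2r1a at 0.52 over 5 probe sets and Ppp2cb at -0.64 (310.7 against 483.3). The higher genes included Pdpk1 and Mtor, which act on Akt, and also the mTOR inhibitor gene Deptor and the phosphatase gene Ppp2r1a.

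Around the Rab GTPase activators, 12 of 25 genes were measured, 1 was higher and 2 were lower (median 0.09). Beside Tbc1d4, Ralgapa1 was lower. It encodes a subunit of the complex that inactivates Ral GTPases, and its log2 ratio of -0.41 was the mean of -0.55 and -0.27, with -0.27 under quantile normalization. The higher gene was Rab8b (315.8 against 197.3 in controls, 0.68). Rab8b and Ralgapa1 passed 250 only on the array where they were brighter. With 250 required on both arrays, 0 genes of this list were higher and 1 was lower. Rab10, a substrate of Tbc1d4 in fat cells, read 1100.0 against 988.5 on average of 3 probe sets (0.12). Rab14 had a log2 ratio of 0.00 to 2 decimals, Rac1, which acts in insulin-stimulated actin remodelling, -0.10, and Rala and Rhoq 0.20 and 0.18.

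Downstream, on the Glut4 vesicle, 13 genes of 24 listed names were measured, 3 were higher and 4 lower (median -0.19, but 0.23 above 500 on the brighter array and 0.09 with no filter). Among the names, Stxbp3a and Munc18c stand for the same gene, and neither had a probe set. Slc2a4, the gene of Glut4 itself, read 2248.9 against 1741.6 in controls (log2 ratio 0.37, not called), but passed the threshold with quantile normalization (0.42) and with intensity-dependent centring (0.43). In younger male mice, with several animals per genotype, the study found Glut4 transcripts unchanged by quantitative PCR and no significant difference in Glut4 protein. Sort1, a sorting receptor of these vesicles, was higher (556.0 against 365.6), as was Exoc4, a subunit of the exocyst that tethers vesicles to the membrane, at 735.7 against 405.6 over 3 probe sets. Another exocyst gene, Exoc7, was lower, at 195.1 against 396.7. Exoc7 passed 250 only on the control array. With 250 required on both arrays, 2 genes of this list were higher and 1 was lower. Vamp5, a vesicle SNARE protein of muscle, had 271.5 against 680.7 (log2 ratio -1.33), the largest difference among the 62.

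Of 17 genes whose products Akt acts on outside glucose transport, 11 were measured, 1 was higher and 3 were lower (median -0.25). The glycogen synthase kinase genes Gsk3a and Gsk3b had log2 ratios of -0.49 and -0.53, but the brighter of the 2 probe sets of Gsk3b had -0.34. Pfkfb3, which makes an activator of phosphofructokinase, was lower (578.5 against 1179.7) and Zfp36l1, an RNA-binding protein gene, was higher (534.9 against 304.6).

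The AMP-activated protein kinase is not part of the insulin pathway but phosphorylates Tbc1d1 in contracting muscle. Of 10 genes of the kinase and its activators, 6 were measured, none was higher and 4 were lower. The median log2 ratio of -0.81 was the lowest of the 8 lists. Prkaa2, the catalytic subunit that predominates in muscle, had signals of 976.1 against 2158.0 in controls and 1088.6 against 2261.6 at its 2 probe sets above 250. Prkab2 was lower at all 3 of its probe sets (log2 ratios from -1.32 to -1.05), and Prkag3, the subunit restricted largely to fast muscle, had 386.3 against 765.5. Stk11, which encodes the activating kinase LKB1, had 310.4 against 479.2 at its brighter probe set. Its other probe set was dim, at 42.0 against 34.8, and with no filter on signal the log2 ratio of Stk11 was -0.18, under the threshold. Prkag1 and Cab39 had log2 ratios of -0.03 and 0.08. Of the 12 muscle fibre markers 5 were also lower, with probe sets that disagreed for Ckm and Myh4, and 7 were neither. Over all measured genes 20.1% were lower. The log2 ratios of the muscle fibre markers had a median of -0.25 and ranged from -1.23 (Ryr1) to -0.08 (Acta1), and their part in these values was not tested. With no filter on signal, which adds the dim genes of the list, the list stood at a median of 0.09.

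**Figure D3:**
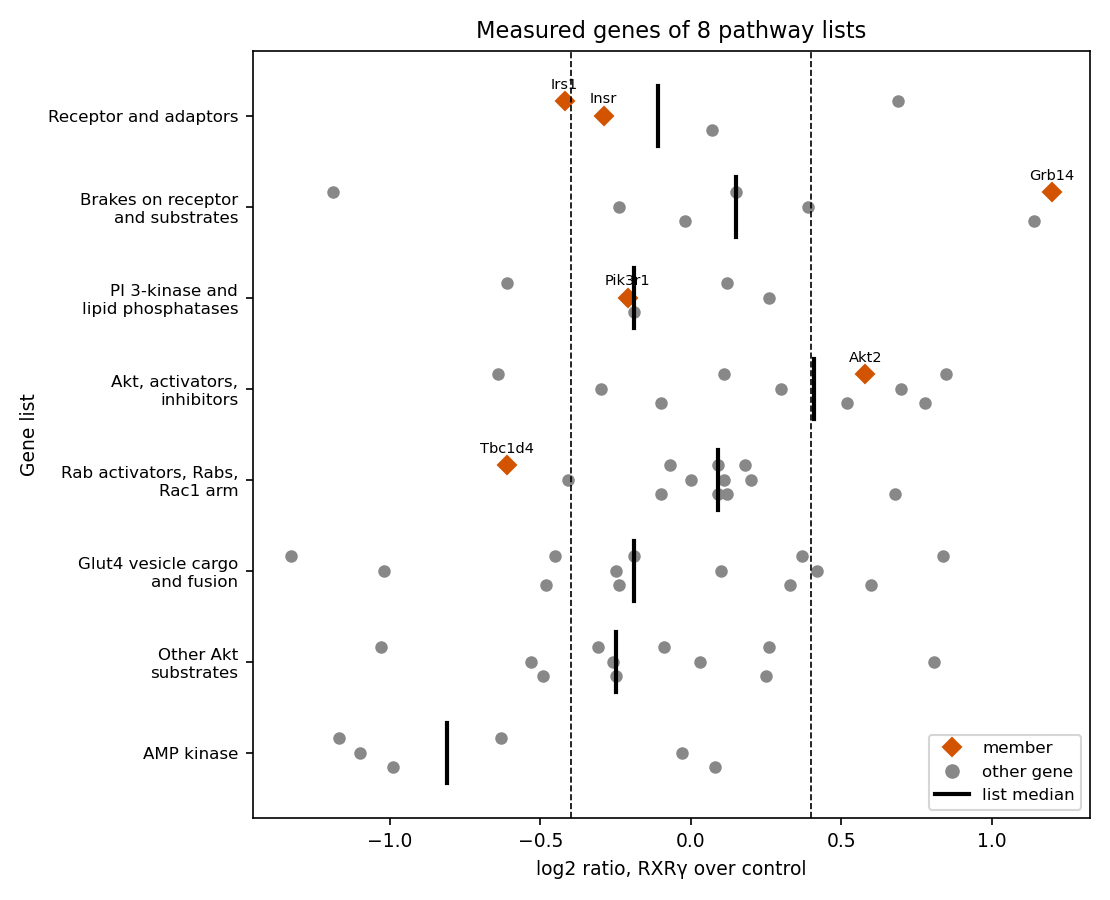
log2 ratio of RXRγ over control for the measured genes of the 8 pathway lists, each point standing for a gene and its height within a row having no meaning, with members as orange diamonds, other genes as grey circles and list medians as black bars. Calls begin at the dashed lines (0.4 either way); the median of the AMP-activated protein kinase list (-0.81) lies beyond them, that of the Akt list (0.41) lies on the line and ran from 0.13 to 0.60 over the alternatives, and Grb14 lies furthest to the right.

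Of the 4 called members, Grb14 and Akt2 kept their call under each alternative at which they could be measured. The alternatives changed the scaling, filter, pseudocount, floor or choice of probe sets. Log2 ratios ran from 1.08 to 1.22 over 9 alternatives for Grb14 and from 0.48 to 0.68 over 11 for Akt2. Grb14 was left out by the stricter filters on signal, which therefore could not decide about its call. The floor, the filter above 150, the brightest probe set and leaving out _x_at and _s_at probe sets leave its bright probe set unchanged. They returned 1.20 by construction. Only the scalings and the pseudocount could move that probe set, and they gave 1.08 to 1.22. Tbc1d4 ran from -0.71 to -0.39 and Irs1 from -0.52 to -0.35. Insr, from -0.39 to -0.26, and Pik3r1, from -0.31 to 0.09, were called in none of their 10. At a log2 ratio of 1, a 2-fold difference, Grb14 alone of the 6 was called, against 9.15% of all measured genes.

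**Figure D4:**
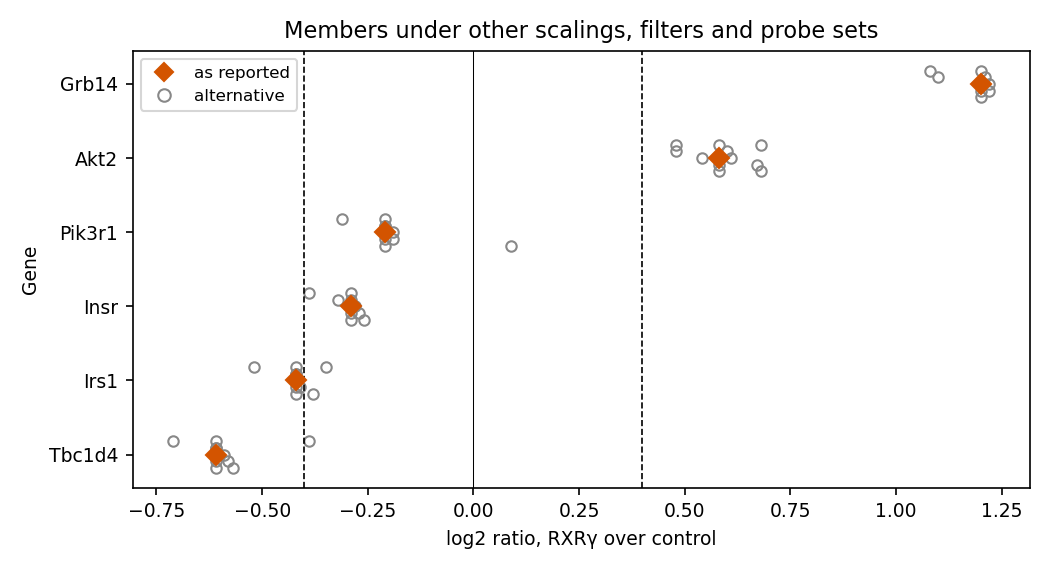
log2 ratio of RXRγ over control for the 6 measured members as reported (orange diamonds) and under each alternative scaling, filter, pseudocount, floor or choice of probe sets (open circles, spread vertically only for legibility). Calls begin at the dashed lines (0.4 either way); all circles of Grb14 and Akt2 lie beyond it, and those of Irs1 and Tbc1d4 fall on both sides of it.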

How the data were processed

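Skeletal muscle RNA of 1 pool of RXRγ mice and 1 pool of control mice was measured on 1 Affymetrix MG430 array each. The deposited values are probe set signals, an intensity on a linear scale that the authors made with the Affymetrix Gene Chip software from perfectly matched and mismatched oligonucleotides. After trimming 2% from either end the mean was 100.0 on both arrays, so the signals had been scaled to a common mean, in a step that the methods do not describe. The median signal was 22.7 in control and 24.3 in RXRγ mice, and 8091 and 8128 of 45101 probe sets exceeded 150. Detection calls were not used here, and the labels and methods name no genome build.

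Probe sets were named through a single gene symbol of the platform annotation (34958 probe sets; 932 with several symbols and 9211 not listed were not used for genes). The log2 ratio of RXRγ over control was computed per probe set and averaged per gene over probe sets above 250 on the brighter array, without a pseudocount. A gene with probe sets beyond 0.4 in both directions was not called, which held for 3 genes. Folds were not given where a signal was under 150 on both arrays. With 1 array per genotype no test was run. A list is described by its counts and its median, beside those of all measured genes.

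The members and lists were chosen with earlier results of these data known. The genes named are the 9 members, up to 4 measured genes of each pathway list with the largest log2 ratio, and Rxrg and Slc2a4; others were named after their values were seen. With 2 arrays no likeness of pattern between genes could be computed. Promoter sequences were taken from RefSeq (GRCm38.p6). Alternatives were median scaling, quantile normalization and loess centring (R 4.3.3, limma 3.58.1), a floor of 150, a pseudocount of 32, other filters on signal, the brightest probe set, leaving out _x_at and _s_at probe sets, and a threshold of 1. The steps were tested on simulated data. Python 3.11.15, pandas 2.3.3, numpy 2.4.6 and matplotlib 3.10.9 were used.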

Additional observations from a re-analysis of the deposited data

How the results depend on the processing

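No paired analysis was possible because each genotype has 1 array and no replicate numbers. Irs1 was not called with quantile normalization (-0.38) or loess centring (-0.35), nor Tbc1d4 without a filter on signal (-0.39); the cause was not tested for Irs1, and for Tbc1d4 the setting adds a dim probe set. The number of members higher by 0.4 was 1 with signals above 250 on both arrays, 1 above 500 on the brighter array and 1 at a threshold of 1, and the number lower was 1 with quantile normalization, 1 with loess centring and 0 at a threshold of 1. Over all measured genes, 636 were higher and 760 lower. The numbers higher were 982 above 150, 340 above 500, 371 above 250 on both arrays, 5208 with no filter and 191 at a threshold of 1, and the numbers lower were 438, 501, 4114 and 155 under the last 4 of these settings. The share of calls that were higher was 45.6%, but 33.2% with median scaling and 55.9% with no filter. Median scaling moved the median log2 ratio of all measured genes from -0.04 to -0.15. The median of the AMP-activated protein kinase list turned to 0.09 with no filter, which adds its dim genes. Over all alternatives, the threshold of 1 included, this list had 2 to 4 genes lower, the Akt list had 0 to 7 higher and 0 to 4 lower, the Glut4 vesicle list 0 to 4 and 1 to 4, the receptor list 0 to 6 and 0 to 3, and the list of restraints 0 to 9 and 0 to 2. The Rab list had 0 to 5 and 0 to 3, the phosphoinositide 3-kinase list 0 to 4 and 0 to 4, and the list of other Akt substrates 0 to 2 and 1 to 4. Above 500 on the brighter array the phosphoinositide 3-kinase list had no measured gene. The medians of other lists turned sign too: that of the receptor list from -0.11 to 0.05 above 150 and to 0.15 with no filter, that of the phosphoinositide 3-kinase list from -0.19 to 0.10 with no filter, that of the Rab list from 0.09 to -0.01 with median scaling, and that of the Glut4 vesicle list from -0.19 to 0.23 above 500 and to 0.09 with no filter. Of the 9 members, Irs2, Akt1 and Tbc1d1 did not reach 250, and Akt1 was measured at a filter of 150.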
